A study of Mus musculus with 24 samples.

Results

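Lipoprotein lipase, its relatives and the proteins that assemble, anchor and restrain it were followed across 24 mouse samples. The members were the probe sets that name exactly 1 of 7 listed genes of triglyceride lipolysis. This found 1 probe set each for Lpl, Lipg, Angptl4, Angptl6, Gpihbp1 and Lmf1, 6 of the 19505 named genes on the array. Lipc, the hepatic lipase gene, was not analysed here. The members were chosen by their role in lipolysis and by 1 measured value, the difference of Angptl4 between SL and control at ED14.5, which was known when the list was drawn up. The comparison of SL with control at ED14.5 is therefore given as a description, with no test of the members.

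The animals, of the outbred stock ICR-CD1, were grandoffspring of either obese or control grandfathers. The line from obese grandfathers is labelled SL, an abbreviation that the labels do not spell out. The 6 groups, of 4 samples each, were SL and control at embryonic day 7.5 (ED7.5), SL and control at embryonic day 14.5 (ED14.5), as well as SL and control liver at postnatal day 7.5 (PD7.5). The labels give no mutation or drug for any group, and leave unsaid whether samples were pooled and how many litters or grandfathers stand behind a group. The p-values below thus measure only the spread between these samples, which may be partly technical. Each sample was hybridised to 1 single-colour array, and its values are log2 probe set summaries. A difference of log2 values is given as such, and a fold is the power of 2 of it.

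The tissue named on the labels was checked against marker genes. Both embryonic ages are labelled whole embryo. On the ED7.5 arrays all 8 decidua markers lay above background on every array, in SL and in control, while 5 of 6 epiblast markers in SL and 3 of 6 in control lay below background on every array. On the ED14.5 arrays all 8 hepatocyte markers lay above background on every array, while 5 of 6 neuron markers lay below background on every array of both arms, as did 4 of 6 striated muscle markers in SL and 5 of 6 in control. The ages therefore differ in tissue as well as in time, and a difference between ages is one between these kinds of sample. In such bulk samples, fewer cells of a type and less RNA per cell cannot be told apart. Between 48.3% and 64.1% of named genes lay above the background of their array, which was set at the 75th percentile of its intron control probes and ran from 5.05 to 6.53 in log2.

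Lipolysis in the circulation frees fatty acids from the triglycerides of lipoproteins at the capillary wall. Lipoprotein lipase (Lpl) does this after the chaperone Lmf1 has helped it to fold in the endoplasmic reticulum and the endothelial protein Gpihbp1 has carried it across the vessel wall and anchored it there. Angptl4 and other angiopoietin-like proteins inhibit the enzyme, and endothelial lipase (Lipg) is a relative that acts mainly on phospholipids. In the rodent liver Lpl is known to be active around birth and to be shut down later. On the build GRCm38.p6, Lpl lies on chromosome 8 (68880555 to 68906932), Angptl4 on chromosome 17 (33774900 to 33781575), Angptl6 on chromosome 9 (20873808 to 20879822), Gpihbp1 on chromosome 15 (75596630 to 75598213) and Lmf1 on chromosome 17 (25579174 to 25662831). The sources used here give no build for the design of the array.

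Start site windows are shown for Angptl6 and Lmf1, which differed in detection. Angptl6 was above background on all 16 arrays of ED14.5 and of the liver and on 3 of 8 arrays at ED7.5, and Lmf1 was above background on all 24 arrays. The windows are the RefSeq sequences of GRCm38.p6 from 250 bases before to 50 bases after a transcript start, written 5′ to 3′ on the strand of the gene, with each CpG in capitals. They lie at chr9:20879661-20879960 on the minus strand and at chr17:25578924-25579223 on the plus strand. The start used for Angptl6 lies 112 bases inside the outer end of the gene.
Angptl6: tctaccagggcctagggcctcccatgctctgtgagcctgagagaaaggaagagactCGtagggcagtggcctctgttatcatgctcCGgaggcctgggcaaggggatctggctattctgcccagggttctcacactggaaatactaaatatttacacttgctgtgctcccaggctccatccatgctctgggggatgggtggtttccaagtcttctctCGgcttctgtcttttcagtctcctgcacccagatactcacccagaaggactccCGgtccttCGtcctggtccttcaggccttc
Lmf1: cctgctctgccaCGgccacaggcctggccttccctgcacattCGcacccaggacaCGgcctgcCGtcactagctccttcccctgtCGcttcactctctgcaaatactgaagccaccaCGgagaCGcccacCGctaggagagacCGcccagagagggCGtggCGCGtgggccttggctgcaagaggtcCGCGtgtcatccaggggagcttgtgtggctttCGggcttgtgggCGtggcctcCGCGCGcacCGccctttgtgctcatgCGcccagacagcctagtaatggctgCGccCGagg
The Angptl6 window holds 5 CpG and the Lmf1 window 23, against a median of 7 over 32851 such windows. At least as many CpG were found in 62.0% of all windows for Angptl6 and in 21.5% for Lmf1. Searched on both strands, the letters GGGCGG (GC box) matched 0 times in the Angptl6 window and 2 times in that of Lmf1, and 35.7% of all windows hold a match. TATAAA (13.6% of all windows), CCAAT (37.4%), CACGTG (7.15%) and the consensus direct repeat DR1 (0.0396%), the element bound by PPAR receptors, matched 0 times in both, and the motifs did not overlap. Windows of Lpl, Lipg, Angptl4 and Gpihbp1 were not used here.

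The levels of the 6 genes fell into separate patterns over the ages. Lpl was dim at ED7.5 and bright in the liver, Lipg was bright at ED7.5 alone, Gpihbp1 was above background at ED7.5 and in the liver but not at ED14.5, and Lmf1 was above background throughout. The plot of the levels on each array shows these patterns.

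**Figure D1:**
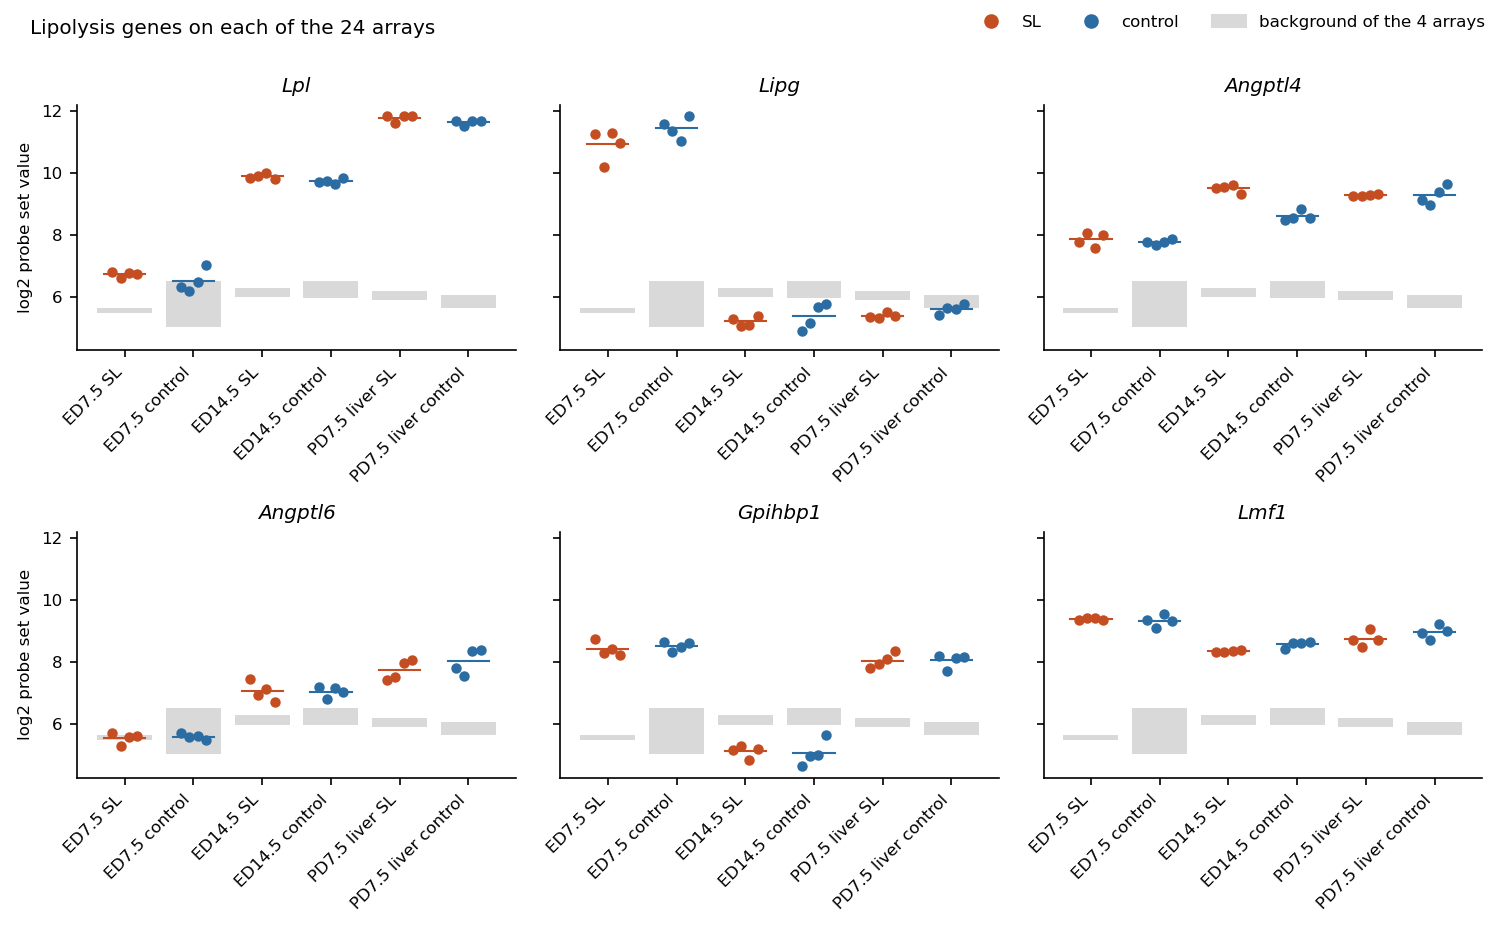
Log2 probe set values of the 6 lipolysis genes (y axis) on each array, by group (x axis). Each point is 1 array, each line the mean of 4 arrays, and each grey block the range of the background of those arrays; Lpl averaged 11.79 in SL and 11.63 in control in the liver, against 6.73 in SL and 6.51 in control at ED7.5.

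Lpl, the lipase itself, had log2 values of 6.82, 6.61, 6.77 and 6.73 in ED7.5 SL samples, against 6.31, 6.21, 6.49 and 7.04 in ED7.5 control samples, of which 3 of 4 lay above background. At ED14.5 it had 9.84, 9.91, 9.99 and 9.82 in SL, against 9.72, 9.74, 9.66 and 9.84 in control. In the PD7.5 liver it had 11.84, 11.63, 11.84 and 11.85 in SL, against 11.67, 11.52, 11.66 and 11.68 in control. The ages did not overlap, and SL and control overlapped at each age. In the order of the 6 means, from SL liver down to ED7.5 control, only the steps between ages exceeded the range of the arrays. The difference of ED14.5 from ED7.5 was 3.15 in SL (SE 0.093, limma adjusted p = 3.75e-09, 8.90-fold) and 3.23 in control (SE 0.17, adjusted p = 9.80e-08, 9.39-fold). The liver was higher again than ED14.5, by 1.90 in SL (SE 0.11, adjusted p = 6.69e-07, 3.73-fold) and by 1.89 in control (SE 0.10, adjusted p = 4.22e-07, 3.72-fold). Lpl thus rose at both steps in both arms.

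Lipg, the endothelial lipase, whose gene lies on chromosome 18, ran the other way. Its log2 values at ED7.5 were 11.26, 10.18, 11.27 and 10.97 in SL and 11.59, 11.34, 11.04 and 11.83 in control. At ED14.5 they were 5.30, 5.07, 5.10 and 5.40 in SL, against 4.89, 5.17, 5.68 and 5.77 in control. In the liver they were 5.35, 5.34, 5.52 and 5.40 in SL and 5.41, 5.65, 5.62 and 5.77 in control. Every array after ED7.5, 16 in all, lay below its background, and the values there have no order. Lipg was at least 28.4-fold lower in SL at ED14.5 than in SL at ED7.5 (fitted log2 difference −5.71, SE 0.23, limma adjusted p = 2.47e-08) and at least 40.0-fold lower in control (−6.07, SE 0.23, adjusted p = 8.64e-09). These bounds set the mean of the bright group against the background of the dim arrays, or against the probe set's own value where that was higher.

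The decidua markers moved with Lipg. Their summed level, the log2 of the sum of their linear values, ran from 8.76 to 9.08 in SL and from 8.97 to 9.08 in control at ED14.5, against 14.88 to 15.09 in SL and 14.93 to 15.12 in control at ED7.5. In both arms 4 of the 8 decidua markers, Hoxa10, Prl3c1, Prl8a2 and Wnt4, lay below background on every ED14.5 array. Their part in the difference of Lipg was not tested.

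Gpihbp1, the capillary anchor of lipoprotein lipase, was found at both ends of the series and not in the middle. At ED7.5 it had log2 values of 8.75, 8.29, 8.43 and 8.22 in SL, against 8.66, 8.32, 8.50 and 8.63 in control. At ED14.5 it had 5.16, 5.29, 4.85 and 5.21 in SL and 4.64, 4.97, 5.00 and 5.66 in control, below background on all 8 arrays. In the liver it had 7.80, 7.93, 8.10 and 8.36 in SL and 8.20, 7.72, 8.15 and 8.18 in control. It was at least 5.04-fold lower at ED14.5 than at ED7.5 in SL (fitted difference −3.30, SE 0.14, limma adjusted p = 4.21e-08) and at least 5.27-fold lower in control (−3.46, SE 0.20, adjusted p = 1.68e-07). It was at least 3.88-fold higher in the SL liver than at ED14.5 (2.92, SE 0.16, adjusted p = 3.68e-07) and at least 3.81-fold higher in the control liver (3.00, SE 0.21, adjusted p = 2.32e-06). The fall and the rise were thus present in both arms.

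The summed level of markers of endothelial cells, the cells known to carry Gpihbp1, followed the same order. It ran from 13.37 to 13.50 in SL and 13.15 to 13.61 in control at ED7.5, from 11.38 to 11.64 in SL and 11.49 to 11.55 in control at ED14.5, and from 12.27 to 12.49 in SL and 12.28 to 12.55 in control livers. Of the 10 markers, 9 in SL and 8 in control were above background on every ED14.5 array, and 0 were below it on every array. Their part in the course of Gpihbp1 was not tested.

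Lmf1, the membrane chaperone of the lipases, varied least over the ages, with group means between 8.35 and 9.40. Its log2 values at ED7.5 were 9.36, 9.43, 9.43 and 9.36 in SL and 9.37, 9.10, 9.57 and 9.33 in control. At ED14.5 they were 8.33, 8.32, 8.37 and 8.40 in SL, against 8.43, 8.63, 8.62 and 8.66 in control. In the liver they were 8.71, 8.51, 9.07 and 8.73 in SL and 8.96, 8.72, 9.24 and 8.99 in control. Lmf1 fell at ED14.5 relative to ED7.5, by 1.04 in SL (SE 0.083, limma adjusted p = 2.76e-06, 2.06-fold) and by 0.76 in control (SE 0.12, adjusted p = 0.000399, 1.69-fold). It rose by 0.40 in SL (SE 0.14, adjusted p = 0.0358) and 0.39 in control (SE 0.13, adjusted p = 0.0365) in the liver relative to ED14.5. That rise missed the threshold in each arm without any 1 array other than liver replicate 2, with an adjusted p of 0.0544 to 0.0804 in SL and 0.0567 to 0.0942 in control.

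Angptl4 is a secreted inhibitor of lipoprotein lipase and a known target of PPAR receptors, of glucocorticoids and of hypoxia. At ED7.5 it had log2 values of 7.77, 8.08, 7.59 and 8.02 in SL, against 7.79, 7.67, 7.76 and 7.89 in control. At ED14.5 it had 9.52, 9.54, 9.62 and 9.33 in SL, against 8.49, 8.54, 8.83 and 8.55 in control. In the liver it had 9.25, 9.25, 9.28 and 9.33 in SL, against 9.14, 8.98, 9.38 and 9.64 in control. Every SL array at ED14.5 lay above every control array of that age, whereas the arms overlapped at ED7.5 and in the liver.

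The order of the Angptl4 means put ED14.5 SL first, at 9.50, with both liver groups at 9.28, then ED14.5 control at 8.60, ED7.5 SL at 7.86 and ED7.5 control at 7.78. The ranges of ED14.5 SL and liver control overlapped, as did those of the 2 liver groups and of the 2 ED7.5 groups. The difference of ED14.5 from ED7.5 was 1.64 in SL (SE 0.13) and 0.83 in control (SE 0.11). That of the liver from ED14.5 was −0.23 in SL (SE 0.11) and 0.68 in control (SE 0.16). Both steps use the ED14.5 SL and control samples whose known difference drew attention to the gene, so they are given as a description, and the steps of the arms were not tested against each other.

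Angptl6, a hepatokine of the same family that is not known as a lipase inhibitor, had log2 values of 5.71, 5.31, 5.58 and 5.62 in SL at ED7.5, against 5.73, 5.58, 5.61 and 5.48 in control. It lay above background there on 1 of 4 SL and 2 of 4 control arrays. At ED14.5 it had 7.46, 6.93, 7.13 and 6.71 in SL and 7.19, 6.82, 7.18 and 7.03 in control, and in the liver 7.44, 7.53, 7.97 and 8.06 in SL and 7.80, 7.56, 8.37 and 8.40 in control. Only the step between ED14.5 and ED7.5 exceeded the range of the arrays in both arms, since 1 SL array at ED14.5 reached the lowest SL liver. Angptl6 rose at that step by 1.50 in SL (SE 0.16, limma adjusted p = 2.99e-05) and by 1.45 in control (SE 0.12, adjusted p = 2.40e-06). It rose again in the liver, by 0.69 in SL (SE 0.20, adjusted p = 0.0171) and by 0.98 in control (SE 0.20, adjusted p = 0.00271). The SL rise missed the threshold without ED14.5 SL replicate 4 (0.58, adjusted p = 0.0513).

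At ED14.5 relative to ED7.5, of the 5 genes other than Angptl4, 2 rose (Lpl and Angptl6) and 3 fell (Lipg, Gpihbp1 and Lmf1), in SL and in control alike. Over all genes tested the share called was 53.6% in SL (26.4% higher and 27.1% lower) and 51.9% in control (25.6% higher and 26.3% lower). In the liver relative to ED14.5, 4 of these 5 genes rose in both arms (Lpl, Angptl6, Gpihbp1 and Lmf1), and 0 fell. The share called over all genes was 45.8% in SL (21.4% higher and 24.4% lower) and 45.2% in control (20.5% higher and 24.6% lower). The median difference of all 6 members was 0.23 in SL and 0.03 in control at the first step, and 0.55 and 0.83 at the next, against medians over all genes of 0.01 and 0.03, and of 0.03 and −0.02. The medians of the members include Angptl4, whose ED14.5 difference was known. They also include Lipg and Gpihbp1, which lay below background at ED14.5, and Lipg did so in the liver as well. With 6 members, such shares and medians describe these genes and no more.

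**Figure D2:**
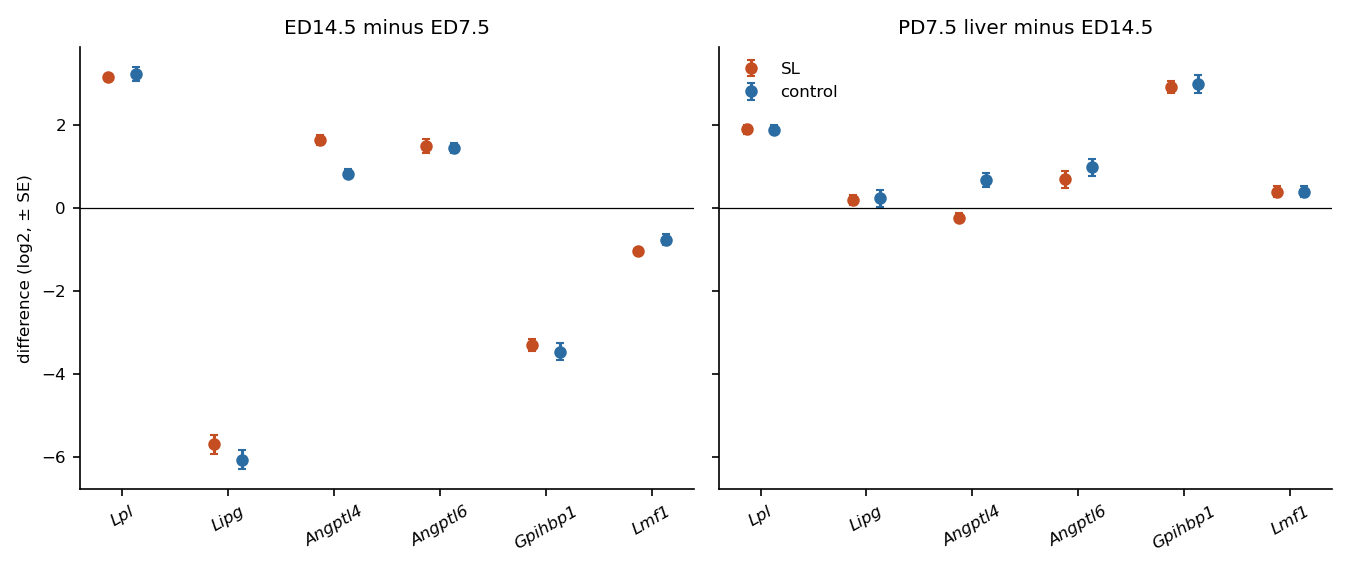
Difference in log2 probe set value between ages (y axis) for the 6 lipolysis genes (x axis), with the standard error as bars; the left panel sets ED14.5 against ED7.5 and the right panel the PD7.5 liver against ED14.5, each with SL left of control. Lpl lies above 0 in both panels, the points of Lipg and Gpihbp1 rest on fitted values below background at ED14.5, and Angptl4 in the right panel is the gene whose arms lie on opposite sides of 0 (−0.23 in SL and 0.68 in control).

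At ED7.5 the SL and control samples were compared for a difference that goes with the obesity of the grandfather. Of the 6 genes, 0 passed with limma and 0 had an unadjusted p below 0.05, where 0.00513% of all genes passed. The largest difference was that of Lipg, −0.53 (SE 0.26, adjusted p = 0.913), with means of 10.92 ± 0.51 in SL and 11.45 ± 0.34 in control (SD, n = 4 each). It was −0.28 without SL replicate 2, the array with the lowest value. Lpl differed by 0.22 (95% interval −0.16 to 0.61, adjusted p = 0.964), Angptl4 by 0.09 (−0.20 to 0.37, adjusted p = 0.988), Gpihbp1 by −0.10 (−0.42 to 0.21, adjusted p = 0.988), Lmf1 by 0.05 (−0.20 to 0.31, adjusted p = 0.996) and Angptl6 by −0.04 (−0.30 to 0.21, adjusted p = 0.998). The arms overlapped in all 6 genes, where 3.05% of all genes did not. The share of exon and intron control pairs in which the exon probe was brighter ran from 0.932 to 0.939 in SL and from 0.867 to 0.957 in control. Control replicate 2 had the lowest share and the highest background (6.53) of all 24 arrays, and Lpl lay below background on it. The decidua markers had a median difference of 0.00 (4 of 8 above 0) and the trophoblast markers of −0.33 (0 of 4 above 0), with 0 called. Of the 4 trophoblast markers, 2 (Ascl2 and Elf5) lay below background on every ED7.5 array, and their differences have no order. The part of the decidua and trophoblast markers in the difference of Lipg was not tested.

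At ED14.5 Angptl4 averaged 9.50 ± 0.12 in SL and 8.60 ± 0.16 in control (SD, n = 4), a difference of 0.90 (SE 0.11) or 1.87-fold. The difference was 0.86 to 0.98 when any 1 array was left out. Lmf1 averaged 8.35 ± 0.036 in SL and 8.59 ± 0.11 in control, a difference of −0.23 (SE 0.090). In these 2 of 6 genes the arms did not overlap, with SL higher in Angptl4 and lower in Lmf1. Angptl4 was chosen with its difference known, so it cannot be counted against the share over all genes. Among the other members only Lmf1 showed no overlap, where 7.98% of all genes did not overlap (3.71% higher and 4.27% lower) and 0.0513% were called. Lpl was 0.15 higher in SL (SE 0.090) and Angptl6 differed by less than 0.01 (SE 0.16), with the arms overlapping. Lipg and Gpihbp1 lay below background in both arms, and their differences of −0.16 and 0.06 have no order.

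The cell type markers were set beside the difference of Angptl4 at ED14.5. Hepatocyte markers ran from 15.60 to 15.68 in summed level in SL and from 15.60 to 15.69 in control, with 4 of 8 above 0 and a median difference of −0.01. The 5 adipocyte markers, Adipoq, Cidec, Lep, Plin1 and Retn, lay below background on every array of both arms. Endothelial markers had a median difference of −0.01 (5 of 10 above 0), erythroid markers of 0.01 (2 of 4), macrophage markers of −0.15 (3 of 8) and neuron markers of 0.22 (6 of 6), and 0 of the markers of these lists were called. Of the 6 neuron markers, 5 lay below background on every array of both arms, and their differences have no order. The macrophage markers summed to 11.20 to 11.37 in SL and 11.22 to 11.61 in control, and their part in the difference was not tested.

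In the PD7.5 liver Angptl4 averaged 9.28 ± 0.040 in SL and 9.28 ± 0.29 in control (SD, n = 4), a difference of −0.0076 (95% interval −0.36 to 0.34, limma adjusted p = 0.994) whose sign changed with other settings. Of the 6 genes, 0 passed and 0 had an unadjusted p below 0.05, where 0% of all genes passed. Lpl differed by 0.16 (−0.11 to 0.42, adjusted p = 0.774), Angptl6 by −0.29 (−0.81 to 0.24, adjusted p = 0.791), Lmf1 by −0.22 (−0.59 to 0.15, adjusted p = 0.768) and Gpihbp1 by −0.013 (−0.39 to 0.37, adjusted p = 0.991). The arms overlapped in all 6 genes, where 4.43% of all genes did not, and Lipg lay below background. The share of exon and intron control pairs in which the exon probe was brighter ran from 0.897 to 0.904 in SL livers and from 0.906 to 0.920 in control livers. Macrophage markers had a median difference of −0.19 (2 of 8 above 0) and erythroid markers of −0.43 (0 of 4), with 0 called. The part of these in the values of the 6 genes was not tested.

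**Figure D3:**
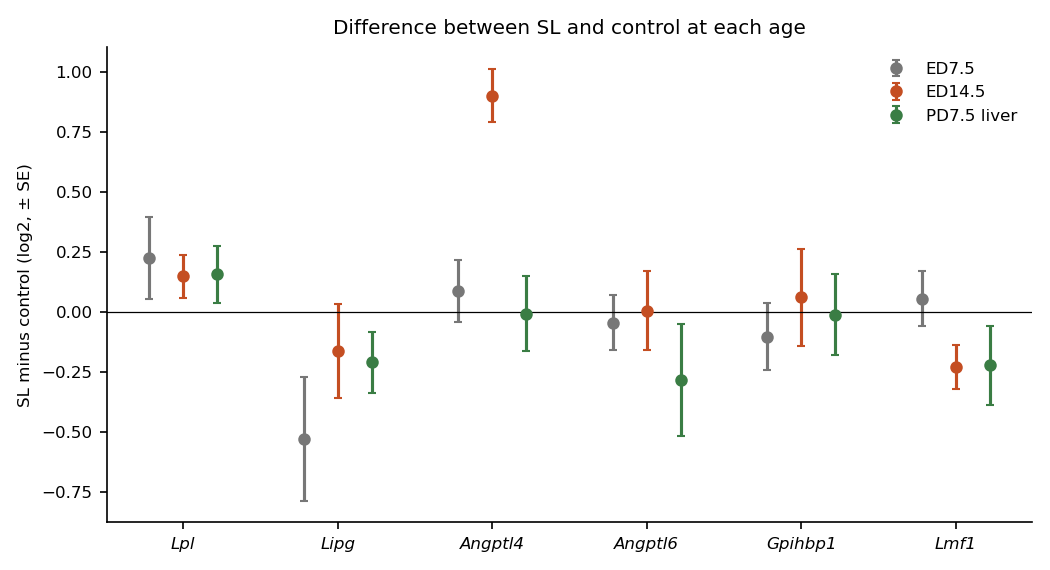
Difference between SL and control in log2 probe set value (y axis) for the 6 lipolysis genes (x axis) at ED7.5, at ED14.5 and in the liver at PD7.5, with the standard error as bars. Angptl4 at ED14.5 stands at 0.90, and the other values lie between −0.53 and 0.22.

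The SL effect in the liver was tested against that at ED7.5 as an interaction in a fit of all 24 arrays. Of the 6 genes, 0 passed with limma and 0 had an unadjusted p below 0.05, where 1 of 19505 passed. The largest fitted difference of effects was 0.32 for Lipg (SE 0.30, limma adjusted p = 0.787). Lipg lay below background on every liver array, so its effect there has no order. For Angptl4 the difference of effects was −0.09 (SE 0.18, adjusted p = 0.916). Interactions with ED14.5 were not tested, since the Angptl4 difference of that age was known.

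The pathway around the members was described with 8 further lists, of which 69 genes had a named probe set. They were the other angiopoietin-like genes, apolipoproteins, helpers of lipase folding and cleavage, remnant receptors, fatty acid uptake, intracellular lipolysis, nuclear receptors and PPAR targets. Of the 69 genes, 0 passed with limma in SL against control at ED7.5 (6 with an unadjusted p below 0.05), 0 at ED14.5 (7) and 0 in the liver (2). An unadjusted p below 0.05 was found for 5.49% of all genes at ED7.5, 11.4% at ED14.5 and 7.91% in the liver.

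At ED14.5 the PPAR targets lay nearest to Angptl4. Their median difference was 0.19, with 8 of 10 above 0, where the median over all genes was 0.00 and 9754 of 19505 genes lay above 0. The 8 include Cyp4a10, Cyp4a14 and Fgf21, which lay below background on every ED14.5 array. The differences of these genes, which also enter the median, have no order. In 4 of 10 all SL arrays lay above all control arrays, where 3.71% of all genes had SL higher without overlap. Pdk4, a kinase that restrains pyruvate oxidation and like Angptl4 is activated by PPAR receptors, averaged 7.42 ± 0.33 in SL and 6.21 ± 0.20 in control (SD, n = 4) and did not pass (1.20, SE 0.17, limma adjusted p = 0.0611), with 3 of 4 control arrays above background. Pex11a, a peroxisomal protein, Cpt1a and Ehhadh, a peroxisomal enzyme of fatty acid oxidation, were singled out for arms that did not overlap, and did not pass. Pex11a lay below background on every control array and was at least 1.29-fold higher in SL, and the differences of Cpt1a and Ehhadh were 0.64 and 0.45. The list was drawn up with knowledge of earlier results of these samples, so that its direction is not independent evidence. Angptl8, a secreted protein that takes part in inhibiting lipoprotein lipase, averaged 7.73 ± 0.062 in SL and 8.18 ± 0.14 in control, with no overlap of the arms (−0.45, SE 0.099, adjusted p = 0.144). The LXR receptor gene Nr1h3 differed by −0.39 (adjusted p = 0.412), and Fabp4, a fatty acid carrier, by 0.32 (adjusted p = 0.449). The other 7 lists had medians between −0.06 and 0.10.

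**Figure D4:**
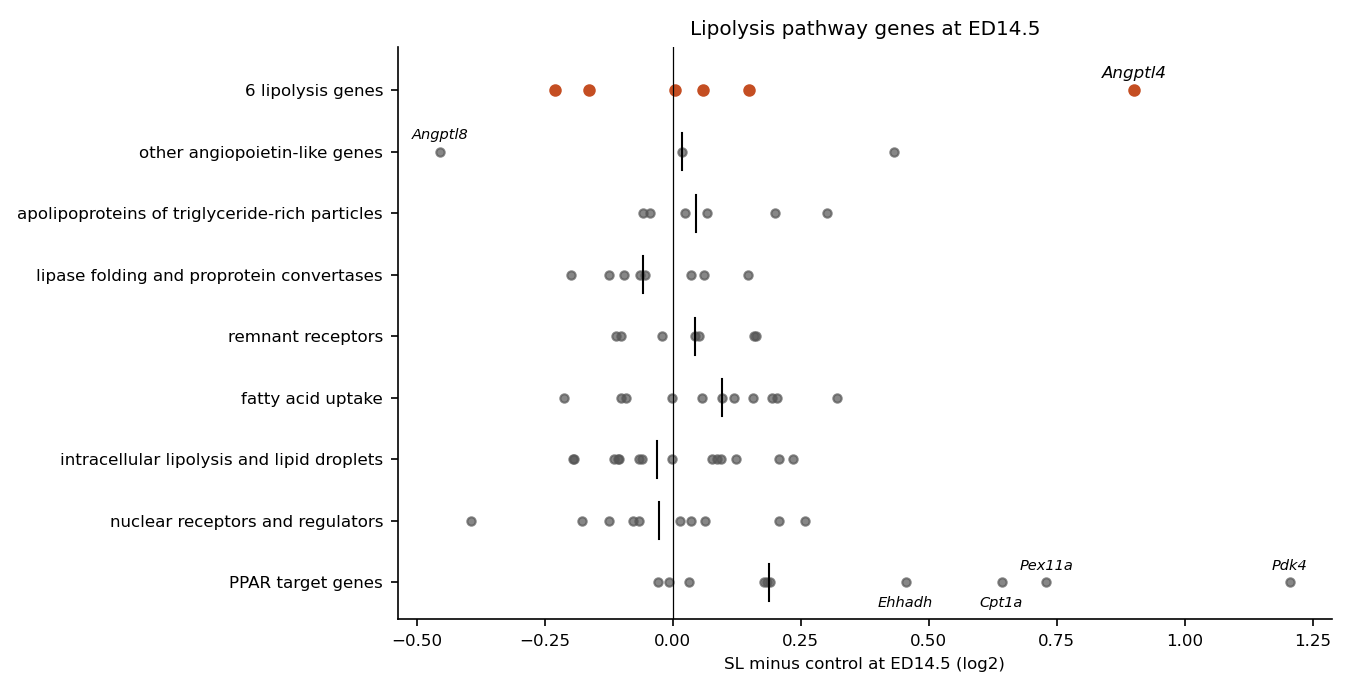
Difference between SL and control at ED14.5 in log2 probe set value (x axis) for the 6 lipolysis genes and the genes of 8 pathway lists (y axis); each point is 1 gene, the short line is the median of a list, and named pathway genes are those whose arms did not overlap. Angptl4 lies at 0.90, Pdk4 at 1.20 and Angptl8 at −0.45, and none of the 69 pathway genes passed.

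In the liver the genes of intracellular lipolysis and lipid droplets had a median SL difference of −0.12, with 13 of 14 below 0 and 0 called. Over all genes the median was 0.00, and 9609 of 19505 genes lay below 0. Among the 13, Cidea, Cidec and Plin1 lay below background on every liver array, and their differences have no order. Plin4, the 1 gene above 0, was above background on 1 SL array and 0 control arrays. Mgll, the monoglyceride lipase, differed by −0.28 (limma adjusted p = 0.650). Angptl8 had 8.66 to 8.86 in SL livers and 8.59 to 10.18 in control livers (−0.50, SE 0.31, adjusted p = 0.716). Cyp4a10, a fatty acid hydroxylase, was 0.63 higher in SL (adjusted p = 0.516). At ED7.5 the gene with the smallest p among those above background was Syvn1, a ligase of protein quality control (0.37, adjusted p = 0.818).

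At ED14.5 relative to ED7.5, 30 of the 69 genes rose and 24 fell in SL, where 26.4% of all genes rose and 27.1% fell. Such counts are of calls, and they can hold genes below background at both ages, whose differences have no order. Examples in SL are Pparg among the 30 and Plin1 among the 24. In control 26 rose and 22 fell, where 25.6% of all genes rose and 26.3% fell. Of 6 apolipoprotein genes 4 rose and 1 fell in each arm, and of 11 genes of fatty acid uptake 5 rose and 5 fell in each. Apob, the scaffold of triglyceride-rich particles, rose by 5.04 in control (limma adjusted p = 1.12e-07), and Fabp1, the liver's fatty acid carrier, by at least 14.8-fold (adjusted p = 3.57e-10). Angptl8 rose by 3.24 in control (adjusted p = 4.90e-07), with 1 of 4 arrays above background at ED7.5. Of the 8 genes of lipase folding and cleavage, 0 rose in either arm, while 6 fell in SL and 5 in control. Pcsk5, a proprotein convertase, fell by 4.79 in control (adjusted p = 3.45e-09), and Vldlr, a receptor for triglyceride-rich particles, by 3.85 (adjusted p = 3.87e-09).

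In the liver relative to ED14.5, 49 of the 69 genes rose and 3 fell in SL, where 21.4% of all genes rose and 24.4% fell. In control 48 rose and 3 fell, where 20.5% of all genes rose and 24.6% fell. All 6 apolipoprotein genes rose in both arms, among them Apoa5, an activator of lipoprotein lipase, by at least 11.3-fold (adjusted p = 3.33e-07) and Apoc3, an inhibitor of it, by 4.42 (adjusted p = 3.21e-08, 3 of 4 arrays above background at ED14.5) in control. Of the 10 PPAR targets 9 were called higher in both arms. They include Fgf21, which in SL lay below background on every array of ED14.5 and of the liver. Its SL difference, also counted among the 49, has no order. The counts can hold other such genes. Slc27a6, of fatty acid uptake, likewise lay below background on every SL array of both ages, with means of 4.11 at ED14.5 and 4.95 in the liver. Cpt1a, which admits fatty acids to mitochondria for oxidation, rose by 3.59 in control (limma adjusted p = 5.91e-08). Ppara itself rose by 3.02 in control (adjusted p = 7.02e-08). Lrp8, a receptor for apolipoprotein E, fell by at least 5.43-fold in control (adjusted p = 1.03e-05).

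The genes most like each member were found by Pearson's r over the 24 arrays, among 12380 named genes above background on at least 4 arrays. These r mostly restate the differences between ages, which form separate clusters, and are given as a description. Lpl was closest to Gckr (0.997), a regulator of glucokinase, Ehhadh (0.997) and Elovl2 (0.996). Lipg was closest to Serpinb9e (0.995), Btbd3 (0.994) and Htra3 (0.993), Gpihbp1 to Tdo2 (0.990), Sqor (0.987) and Smarca2 (0.985), and Angptl6 to Qprt (0.974), the clotting factor gene F10 (0.971) and Slc16a12 (0.971). For Lmf1 they were Bcl3 (0.950), Kank2 (0.945) and Itgav (0.945), and for Angptl4 Zfand1 (0.947), Acp6 (0.934) and Gsta4 (0.933).

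After the mean of each age was subtracted, Angptl4 was closest to Gsr (0.797), Nmi (0.795), Mideas (0.791), Poldip2 (0.775) and Cirbp (0.768), and the SL difference at ED14.5 enters each of these values. Each of the 5 had all SL arrays above all control arrays at ED14.5, with differences from 0.36 for Poldip2 to 1.79 for Cirbp, the cold-inducible RNA-binding protein. Lpl was then closest to Tmem219 (0.761), Limch1 (0.751), the endothelial receptor Tie1 (0.751), Cox7a2l (0.737) and Foxa3 (0.735). Between members the age-centred r ran from −0.21 for Angptl4 with Lmf1 to 0.48 for Lipg with Gpihbp1, and was 0.32 for Angptl4 with Lpl. The value of 0.48 rests in part on values below background, where Lipg lay at ED14.5 and in the liver and Gpihbp1 at ED14.5.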

How the data were processed

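RNA of 24 samples was measured on 1 single-colour array each. The deposited log2 values are probe set summaries that the authors made with RMA in the oligo package, per the submitters' processing notes; the sources used here give no version, and the log2 scale was inferred from that method and the range of the values. RMA equalises the distribution of probe intensities over the arrays run together, so levels between tissues are relative; which arrays were run together is not stated. Gene names came from the platform annotation: 19572 probe sets named 1 gene, and the brightest was kept for 55 genes with several, which left 19505. No 2 arrays were duplicates (at most 1 equal value between arrays of a group). Each comparison was fitted with limma 3.58.1 in R 4.3.3 on its 8 arrays (24 for the interaction) over all 19505 genes, two-sided, with Benjamini-Hochberg adjustment and a threshold of 0.05; files were read with data.table (1.17.8), and matplotlib 3.10.9 under Python 3.11.15 drew the plots. The method was tried on simulated data with independent normal noise, and no result here rests on that. The number of arrays limits the precision (median SE per gene 0.144, 0.143 and 0.187 in log2 for SL against control at ED7.5, ED14.5 and in the liver). The members and lists were chosen with earlier results of these data known, and some genes of the pathway are not reported here. The text names genes by rule: the members; of each pathway list, up to 3 called genes with the largest difference in a comparison, or else the gene with the smallest p (a selection is printed); Pdk4; and the 3 genes with the highest r to each member (5 for the age-centred r of Angptl4 and Lpl). At ED14.5 Pex11a, Cpt1a and Ehhadh were named outside this rule, because their arms did not overlap. The arrays were treated as unpaired: deviations of same-numbered SL and control arrays correlated between −0.165 and 0.116, and 1 of 12 pairs was over 0.1. That pair was in the liver, where the same-numbered r were −0.016, 0.097, 0.116 and 0.066. Liver arrays of differing numbers ran from −0.150 to 0.085. Whether same-numbered liver arrays shared a step of handling was not tested. In the liver 0 members passed under the 7 other settings, the replicate block among them.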

Additional observations from a re-analysis of the deposited data

Results flagged for a closer look

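In 36 sets of 4 arrays (6 genes in 6 groups), 4 held an array that stood apart from the other three by Dixon's criterion at the 95% level, where chance flags about 1 set in 20. Lpl was lowest on replicate 2 in the liver of both arms: 11.63 in SL, where the other arrays had 11.84 to 11.85, and 11.52 in control, where they had 11.66 to 11.68. Gpihbp1 was lowest on the same control liver array, at 7.72 against 8.15 to 8.20. Lmf1 was lowest on ED14.5 control replicate 1, at 8.43 against 8.62 to 8.66, and this array had the highest background of its age (6.51).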

How the results depend on the processing

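In 448 of 480 repeats of the tested member differences under other settings the direction and the side of the threshold held; 17 lost their call, of which 16 were the rise of Lmf1 and 1 that of Angptl6 between ED14.5 and the liver, and 15 changed sign, among differences that had not passed; of 90 repeats of the untested differences at ED14.5, 7 changed sign (Angptl6 and Gpihbp1), and of 60 of Angptl4 between ages, 0 did. The liver difference of Angptl4 was 0.012 with array weights and 0.0061 after quantile normalization within the comparison, and that of Gpihbp1 was 0.014 and 0.028; leaving out 1 array gave −0.11 to 0.11 for Angptl4 and −0.13 to 0.070 for Gpihbp1 in the liver, and −0.095 to 0.038 for Angptl6 and −0.026 to 0.13 for Lmf1 at ED7.5. In the fit with replicate block the rise of Lmf1 to the liver had an adjusted p of 0.0562 in SL and 0.0643 in control, and all 10 calls over all genes at ED14.5 were lost (0); the block ended no call of the other 5 members. The 4 members called between liver and ED14.5 in SL became 2 to 4 without 1 array (2 without ED14.5 SL replicate 4). Genes called over all genes were 1 at ED7.5 (3 with an intensity trend, 12 in a fit of all 24 arrays, 0 to 2 without 1 array), 10 at ED14.5 (283 with the trend, 79 in the fit of all arrays, 99 without the dimmest 33% of genes, 1 to 5 without any 1 array) and 0 in the liver (5 in the fit of all arrays); the causes were not tested. Signal limits Lipg and Gpihbp1 at ED14.5 and Lipg in the liver, which lay below background on every array. It also limits Angptl6 at ED7.5, which was above background on 1 of 4 SL and 2 of 4 control arrays. For the interaction, the alternatives were chosen after seeing the data, and 0 members passed under each.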
